A study of Mus musculus with 12 samples.

Results

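The 9 genes described here carry antigen presentation on MHC class II: H2-Aa, H2-Ab1 and H2-Eb1 (chains of the class II molecules), Cd74 (the invariant chain), Ciita (the transactivator), H2-DMa and H2-DMb1 (the peptide exchange factor) and H2-Oa and H2-Ob (its inhibitor). They were chosen by name, through probe sets annotated with that gene symbol alone, out of 21314 genes measured that way. 8 of the 9 genes were measured, each by 1 probe set, while the probe set of Cd74 carries a second gene symbol and was not analysed here. The study measured RNA of the whole colon of mice aged 6 to 8 weeks on 12 Affymetrix arrays, with 3 mice in each of 4 groups: wild-type mice on drinking water, wild-type mice given dextran sulfate sodium (DSS) at 4% over 7 days, Parp1-/- mice on water, and Parp1-/- mice given DSS on the same schedule. DSS is a polymer that injures the colon epithelium and causes colitis, and Parp1 encodes poly(ADP-ribose) polymerase 1, an enzyme of the DNA damage response. Wild-type groups carry no named allele and Parp1-/- groups lack Parp1 in the whole animal. Strain, sex and the making of the Parp1 allele were not stated. The numbers 1 to 3 within a group only name the mice.

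A class II molecule is a pair of an alpha and a beta chain that holds a peptide taken up from outside the cell and shows it to CD4+ T cells. The chains are assembled on the invariant chain, which fills the peptide groove until cathepsins cut it down in endosomes; H2-DM then exchanges the last fragment for an antigen peptide, and H2-O holds H2-DM back. Dendritic cells, macrophages and B cells carry class II at all times, while other cells, colon epithelium among them, can put it on under interferon-gamma. CIITA switches the whole set on without touching DNA itself, by docking on factors that sit on a conserved run of promoter boxes, of which the X box is bound by the RFX complex and the Y box by NF-Y.

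The 6 members with a RefSeq promoter (build GRCm38.p6) are H2-Aa, H2-Eb1, H2-DMa, H2-DMb1, H2-Oa and H2-Ob; H2-Ab1, Ciita and Cd74 had no entry. The 250 bases before each start were searched on both strands for the X core GNAAC and the Y box GATTGG, and for an X core followed by a Y box on the same strand with 15 to 40 bases between them, so that the motifs never overlap. The letters and the spacing were chosen with these sequences in view. The run of X core and Y box was present in 5 of the 6, in each case with 24 to 27 bases between the motifs, against 1.25% of all 32851 promoters; the X core alone was in 79.6% and the Y box alone in 14.6% of them. H2-DMa, listed with more than 1 start, held a Y box in 1 window but no such run. The stretches are shown because these genes share their promoter layout while their patterns over the arrays, given below, differ. Capitals mark the X core and the Y box, and each sequence is read 5′ to 3′ along the gene's own strand. H2-Aa lies on the minus strand and the others on the plus strand, at chr17:34287863-34287914 (H2-Aa), chr17:34305766-34305816 (H2-Eb1), chr17:34153087-34153138 (H2-DMb1), chr17:34092293-34092344 (H2-Oa) and chr17:34238808-34238856 (H2-Ob).
H2-Aa: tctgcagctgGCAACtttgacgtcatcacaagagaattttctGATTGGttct
H2-Eb1: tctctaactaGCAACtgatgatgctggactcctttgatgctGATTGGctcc
H2-DMb1: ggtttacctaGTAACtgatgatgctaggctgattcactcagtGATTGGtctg
H2-Oa: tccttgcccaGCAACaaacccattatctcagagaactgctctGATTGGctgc
H2-Ob: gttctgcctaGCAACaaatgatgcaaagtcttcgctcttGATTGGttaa

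The 7 H2 genes measured here all lie on chromosome 17, in the order H2-Oa, H2-DMa, H2-DMb1, H2-Ob, H2-Ab1, H2-Aa and H2-Eb1. Ciita lies on chromosome 16 and Cd74 on chromosome 18.

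All levels are the deposited values, taken as log2 and centred per probe set on the median of all arrays, so that 0 is that gene's middle level and no gene's level can be set against another's. Some arrays stood apart, which touches every comparison with the wild-type water group. In wild-type water 1, 2 and 3 and wild-type DSS 1 the mean of 13 housekeeping genes (of 17 listed) lay between -1.92 and -1.07, against 0.01 to 0.41 in the other 8 arrays. Most olfactory and vomeronasal receptors have no known use in the colon. The mean of 1056 genes of such receptors was 0.40 to 0.46 in the same 4 arrays, against -0.15 to 0.09 in the rest. Colon epithelium markers (10 genes) were low in these arrays too, at -1.57 to -0.80 against -0.05 to 0.28. Smooth muscle markers (9 genes) stood at 2.97 to 3.02 in Parp1-/- water 2 and 3 and Parp1-/- DSS 1, against -0.49 to 0.07 elsewhere. The part of these arrays in the results was not tested beyond leaving them out. Parp1 itself lay between -0.22 and 0.03 in the 6 Parp1-/- arrays, and in the wild type between 0.51 and 1.15 in 4 arrays, but at -0.41 in mouse 1 on water and 0.0094 in mouse 1 given DSS. Where its probe set lies relative to the altered part of the gene was not stated either, so this is a weak check, and group names stand for the labels throughout.

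The 3 class II chains were low in the arrays that stood apart and near or above their middle level in the others. H2-Ab1, the beta chain of the A molecule, measured -2.61, -2.27 and -3.01 on water and -2.09, 0.56 and 0.92 under DSS in the wild type, with -0.23, 0.29 and -0.01 on water and 0.13, 0.01 and 0.59 under DSS in the Parp1-/- mice. The 3 wild-type water arrays were its lowest, wild-type DSS 1 was next to them, and the other 8 spanned little more than a single log2 step.

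H2-Aa, the alpha chain that pairs with H2-Ab1, measured -0.96, -0.81 and -0.49 on water and -1.62, 0.29 and 0.99 under DSS in the wild type, with -0.43, 0.16 and -0.10 on water and 0.22, 0.10 and 0.73 under DSS in the Parp1-/- mice. H2-Eb1, the beta chain of the E molecule, measured -1.92, -0.57 and -0.36 on water and -0.65, 0.09 and 0.91 under DSS in the wild type, with -0.14, 0.49 and -0.03 on water and 0.06, 0.03 and 0.50 under DSS in the Parp1-/- mice. Wild-type DSS 1 was the lowest array of all for H2-Aa, and wild-type water 1 was for H2-Eb1. For all 3 chains the highest array was wild-type DSS 3, and for H2-Aa the wild-type DSS group alone spanned the whole range of the 12.

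H2-DMa and H2-DMb1 are the 2 chains of H2-DM, yet their arrays did not rank alike. H2-DMa measured -0.23, -0.04 and -0.15 on water and -0.30, 1.35 and 1.51 under DSS in the wild type, with 0.04, 0.11 and -0.26 on water and 0.57, -0.12 and 1.03 under DSS in the Parp1-/- mice. H2-DMb1 measured 0.28, 0.30 and 0.33 on water and -0.29, -0.03 and 0.29 under DSS in the wild type, with -0.33, -0.12 and -0.14 on water and 0.03, -0.26 and 0.15 under DSS in the Parp1-/- mice. H2-DMa was high in wild-type DSS 2 and 3 and in Parp1-/- DSS 3, whereas H2-DMb1 had its highest array in wild-type water and a narrow range. H2-DMb1 and its neighbour H2-DMb2 are near-identical copies, so signal may be shared between their probe sets.

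H2-Oa, the alpha chain of the inhibitor H2-O, measured 0.40, 0.21 and 0.28 on water and -0.01, 0.07 and -0.08 under DSS in the wild type, with -0.08, -0.12 and 0.01 on water and -0.26, -0.37 and 0.12 under DSS in the Parp1-/- mice. H2-Ob, its beta chain, measured 0.07, -0.06 and -0.13 on water and 0.38, -0.21 and -0.14 under DSS in the wild type, with 0.55, -0.10 and 0.06 on water and -0.44, 0.06 and 0.91 under DSS in the Parp1-/- mice. The wild-type water arrays were the highest for H2-Oa, with no overlap with any other group. For H2-Ob the Parp1-/- DSS group alone held the lowest and the highest array of the 12.

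Ciita, whose product turns the set on, had a narrow range, like H2-Oa and H2-DMb1. It measured 0.16, -0.29 and -0.01 on water and 0.01, 0.22 and 0.26 under DSS in the wild type, with -0.36, -0.18 and -0.11 on water and 0.04, -0.20 and 0.46 under DSS in the Parp1-/- mice. Its lowest array was Parp1-/- water 1 and its highest Parp1-/- DSS 3, so neither end of its range lay in the 4 arrays that were low for the chains.

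**Figure D1:**
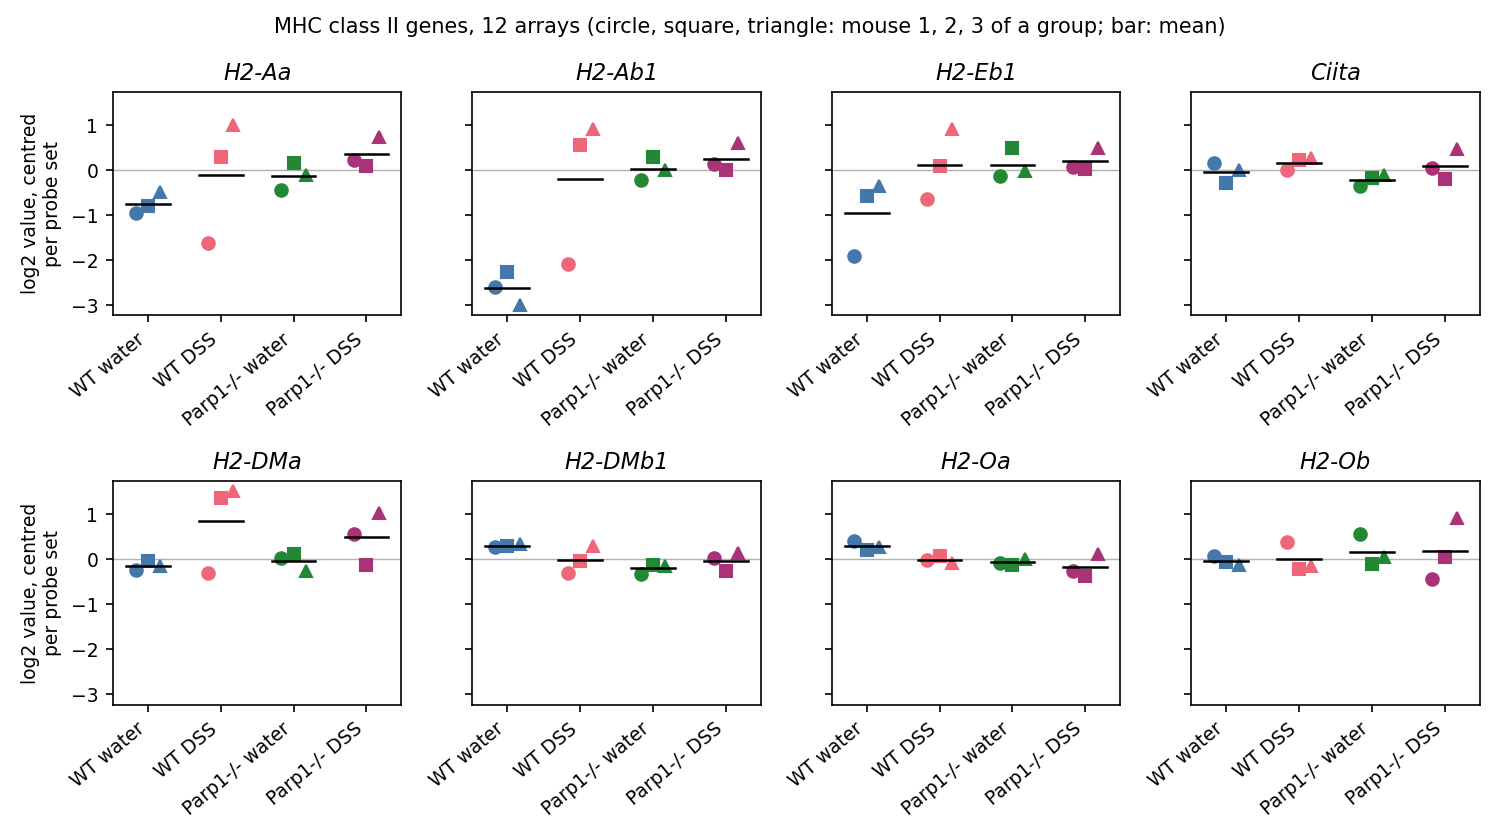
Level of each measured class II gene (log2 value centred per probe set, vertical axis) in the 12 arrays, by group; circles, squares and triangles are mice 1, 2 and 3 of a group and bars are group means. H2-Ab1 sits between -3.01 and -2.27 on wild-type water, at -2.09 for wild-type DSS mouse 1, while its other 8 arrays lie between -0.23 and 0.92.

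By group mean (± SD, n = 3), H2-Ab1 ranked from -2.63 ± 0.37 in wild-type water through -0.20 ± 1.64 under DSS in the same genotype and 0.02 ± 0.26 in Parp1-/- water to 0.24 ± 0.31 in Parp1-/- DSS. Only the step from wild-type water to the next group exceeded the spread within groups; the 3 upper groups overlapped. H2-Aa ran from -0.75 ± 0.24 in wild-type water to 0.35 ± 0.33 in Parp1-/- DSS and H2-Eb1 from -0.95 ± 0.84 to 0.20 ± 0.26, in each case with the wild-type DSS and Parp1-/- water groups between them and overlapping each other.

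The first comparison asks how the genes respond to DSS in the wild type. H2-Ab1 rose by 2.42 ± 0.61 (log2 difference ± SE, 3 against 3 mice), a 5.36-fold higher level, with limma's adjusted p = 0.0242 over all genes, and its groups did not overlap. It was the 1 member of 8 called at an adjusted p under 0.05, and 13.0% of all genes were called in this comparison, 8.89% higher and 4.16% lower. The other chains differed by 1.07 ± 0.44 (H2-Eb1, adjusted p = 0.128) and 0.64 ± 0.51 (H2-Aa, adjusted p = 0.426), and H2-DMa by 0.99 ± 0.42 (adjusted p = 0.141), all by limma and all with overlapping groups. H2-Oa differed by -0.30 (limma's adjusted p = 0.215) without overlap between groups; groups did not overlap for 23.6% of all genes, 11.4% higher and 12.2% lower. H2-DMb1 differed by -0.31, Ciita by 0.21 and H2-Ob by 0.05. The median over the 8 members was 0.42, against -0.05 over all genes.

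In the same comparison 8 of 13 housekeeping genes were called higher (median 1.37), and so were 7 of 10 epithelial markers. Of 12 macrophage and monocyte markers 3 were called higher, and of 9 B cell markers none was, with none at an unadjusted p under 0.05. Among markers of other cells, 1 of 9 dendritic cell genes was called higher, 1 of 6 T cell genes higher and 1 lower, 1 of 3 genes of group 3 innate lymphoid cells lower, and none of 6 plasma cell, 5 endothelial or 9 smooth muscle genes. Whether a marker is absent cannot be read from centred values. In whole-tissue RNA fewer cells of a type and less RNA per cell cannot be told apart. The part of these shifts in the difference of H2-Ab1 was not tested. Relative to the housekeeping mean of the same array, H2-Ab1 stood at -0.69, -1.18 and -1.71 on water and at -1.02, 0.55 and 0.51 under DSS in the wild type. H2-Aa stood at 0.96, 0.28 and 0.80 on water and at -0.56, 0.28 and 0.59 under DSS on the same relative scale. Its group mean there was lower under DSS than on water, opposite in sign to its difference of 0.64 as deposited. H2-Eb1 stood at -0.00088, 0.51 and 0.93 on water and at 0.42, 0.09 and 0.51 under DSS. H2-Ab1 was the only measured member with a higher group mean under DSS on this scale. For H2-Eb1, H2-DMa, Ciita and H2-Ob, as for H2-Aa, the sign was opposite to that of the deposited difference. A difference within an array shows only that these genes changed unequally.

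These calls changed when 1 wild-type array was left out. Without wild-type DSS 1, 4 members were called higher by limma: H2-Ab1 at 3.37, H2-DMa at 1.57, H2-Eb1 at 1.45 and H2-Aa at 1.39. In that fit 19.7% of all genes were called higher and 12.5% lower. The call of H2-Ab1 was lost without wild-type water 1 (limma's adjusted p = 0.0602), wild-type water 3 (0.0738), wild-type DSS 2 (0.106) or wild-type DSS 3 (0.0801), with differences from 1.86 to 2.43. It was also lost with quantile normalization, where the difference was 1.63 (limma's adjusted p = 0.146). The same held when only the 6 wild-type arrays were fitted (limma's adjusted p = 0.141). The share of all genes called higher was 1.02% with quantile normalization and 2.91% with the 6 arrays.

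DSS against water in Parp1-/- mice asks the same question in the other genotype, with the spread still estimated over all 12 arrays. No member of 8 was called by limma and none reached an unadjusted p under 0.05, where 0.00938% of all genes were called and 2.86% had an unadjusted p under 0.05. The differences were 0.53 for H2-DMa, 0.47 for H2-Aa, 0.32 for Ciita, 0.22 for H2-Ab1, 0.17 for H2-DMb1, 0.09 for H2-Eb1, 0.0044 for H2-Ob and -0.11 for H2-Oa. The groups overlapped for every member, whereas they did not for 12.5% of all genes. The 95% interval of H2-Ab1 ran from -1.11 to 1.56 and that of H2-Aa from -0.65 to 1.59, and both include 0. The shared spread behind them takes in wild-type DSS, where the SD of H2-Ab1 was 1.64. In Parp1-/- mice that SD was 0.26 on water and 0.31 under DSS. 7 of the 8 differences were above 0, as were 53.1% of those of all genes, and their median was 0.20 against 0.010 over all genes. Sign statements on H2-Ob and H2-Eb1 depend on scaling or on 1 array.

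Parp1-/- DSS 3 stood apart within its group. Its B cell markers averaged 0.99 over 9 genes, against -0.31 and 0.05 in Parp1-/- DSS 1 and 2 and -0.32 to 0.39 in the other 9 arrays, and Cd79a (1.93), Cd79b (1.76) and Ms4a1 (1.48), which mark the B cell receptor and surface, were among them. 6 of the 9 B cell markers had their highest array there, against 5.70% of all genes. In that array H2-Ob, which B cells are known to express, measured 0.91, and 2 further class II genes, H2-DMb2 and H2-Eb2, measured 1.17 and 0.97. The other members ranged there from 0.12 (H2-Oa, the partner of H2-Ob) to 1.03 (H2-DMa), with H2-DMb1 at 0.15. H2-Ea stood at 0.06. The part of this array in the Parp1-/- values was not tested beyond leaving it out: without it the H2-Ob difference was -0.36 and no member was called.

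**Figure D2:**
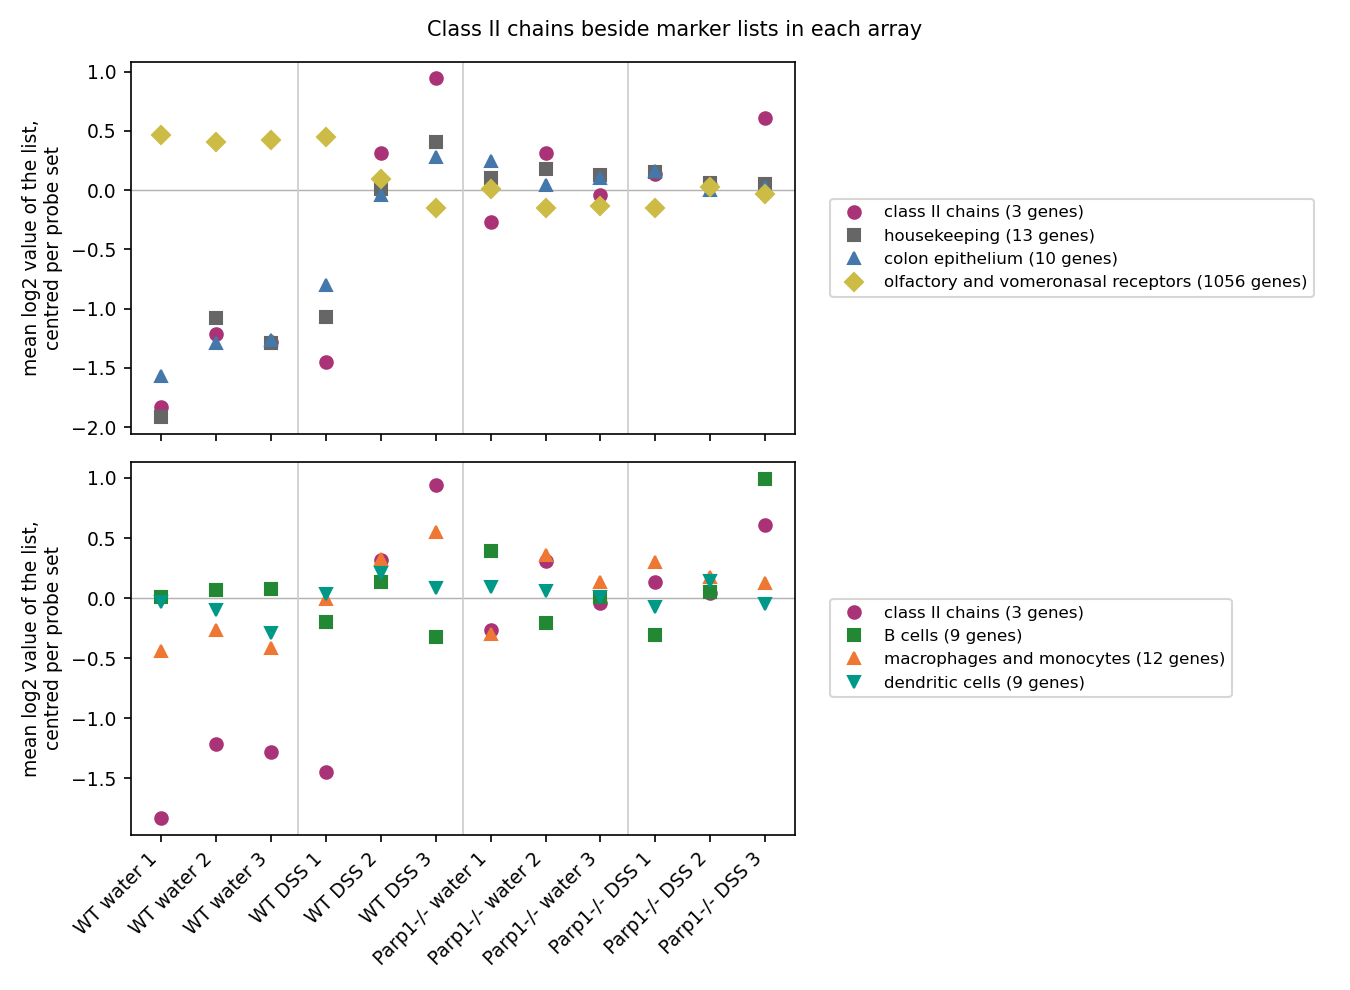
Mean level (log2, centred per probe set, vertical axis) of the 3 class II chains in each array, beside housekeeping, epithelial and receptor genes (upper panel) and immune cell markers (lower panel); each point is the mean of a list in 1 array. The chains average -1.83 to -1.22 in the 4 arrays in which housekeeping genes are also low, and B cell markers reach 0.99 in Parp1-/- DSS 3.

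The comparison of genotypes in mice on water asks whether Parp1 loss alters the genes without injury. H2-Ab1 was 6.25-fold higher in Parp1-/- mice, a difference of 2.64 ± 0.61 (limma's adjusted p = 0.00963), and was the 1 member of 8 called, against 31.6% of all genes. H2-Eb1 differed by 1.06 ± 0.44 (limma's adjusted p = 0.0823) and H2-Aa by 0.63 ± 0.51 (0.342), both without overlap between the groups. H2-DMb1 differed by -0.50 ± 0.18 (limma's adjusted p = 0.0505) and H2-Oa by -0.37 ± 0.16 (0.0916), again without overlap but in the opposite direction. H2-Ob differed by 0.21, H2-DMa by 0.11 and Ciita by -0.17, with overlapping groups. Groups did not overlap for 5 of 8 members, 3 higher and 2 lower, and for 55.4% of all genes, 26.2% higher and 29.2% lower. The median over the 8 members was 0.16.

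This comparison uses the same 3 wild-type water arrays as the one on DSS in the wild type, so the 2 differences of H2-Ab1 are not independent. Housekeeping genes differed by a median of 1.63, with 11 of 13 called higher, and 9 of 10 epithelial markers were called higher; receptor genes differed by a median of -0.52, with 392 of 1056 called lower. Their part in the members' differences was not tested. Relative to the housekeeping mean of the same array, H2-Aa stood at 0.96, 0.28 and 0.80 in wild-type water. In Parp1-/- water it stood at -0.53, -0.02 and -0.23, lower and without overlap. H2-Eb1 stood at -0.00088, 0.51 and 0.93 against -0.23, 0.32 and -0.16, with overlapping groups. H2-Ab1 stood at -0.69, -1.18 and -1.71 against -0.33, 0.11 and -0.13, still higher in Parp1-/- mice. Ciita, H2-DMa, H2-DMb1, H2-Oa and H2-Ob all had lower group means in Parp1-/- water than in wild-type water on this scale. Without the 3 arrays high in smooth muscle genes, which leaves 1 Parp1-/- water array assumed to vary like the other groups, the H2-Ab1 difference was 2.40 (limma's adjusted p = 0.322), and with quantile normalization it was 1.41 (0.0841). Over all genes 3813 were called higher and 2912 lower; with array medians set equal the split was 4133 to 1654 and with quantile normalization 1773 to 446. The median difference over all genes was -0.07 as deposited and 0.04 with array medians set equal.

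Between genotypes under DSS, no member of 8 was called by limma and none had an unadjusted p under 0.05. No gene at all was called (0%), and 593 genes, 2.78%, had an unadjusted p under 0.05. The differences, Parp1-/- minus wild type, were 0.46 for H2-Aa, 0.45 for H2-Ab1, 0.17 for H2-Ob, 0.08 for H2-Eb1, -0.02 for H2-DMb1, -0.06 for Ciita, -0.17 for H2-Oa and -0.36 for H2-DMa. The groups overlapped for each of them and did not for 6.55% of all genes. The median over the 8 was 0.030, against 0.0021 over all genes. The signs of the chains turned without wild-type DSS 1, to -0.29 for H2-Aa, -0.50 for H2-Ab1 and -0.31 for H2-Eb1, while H2-DMa stood at -0.94, and none was called. H2-Eb1 turned also without Parp1-/- DSS 3, to -0.074, and with quantile normalization, to -0.0057. The 95% interval of H2-Ab1 with all arrays ran from -0.89 to 1.78.

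The DSS responses of the 2 genotypes were then compared directly, as the difference in Parp1-/- mice minus that in the wild type. No member of 8 was called by limma, against 2.54% of all genes, and H2-Ab1 alone had an unadjusted p under 0.05, as did 17.5% of all genes. Its response was lower by 2.20 ± 0.86 in Parp1-/- mice (difference -2.20, 95% interval -4.08 to -0.32, limma's adjusted p = 0.218). Without wild-type DSS 1 that difference was -3.14 ± 0.35 and was called (limma's adjusted p = 0.000671), in a fit that called 3.14% of all genes higher and 11.8% lower. H2-Eb1 differed by -0.98 ± 0.62, H2-DMb1 by 0.49 ± 0.25, H2-DMa by -0.47 ± 0.60, H2-Oa by 0.20, H2-Aa by -0.17, Ciita by 0.11 and H2-Ob by -0.05, with a median of -0.11 against 0.051 over all genes. The wild-type response in this comparison is measured from the 3 water arrays in which housekeeping genes were low.

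**Figure D3:**
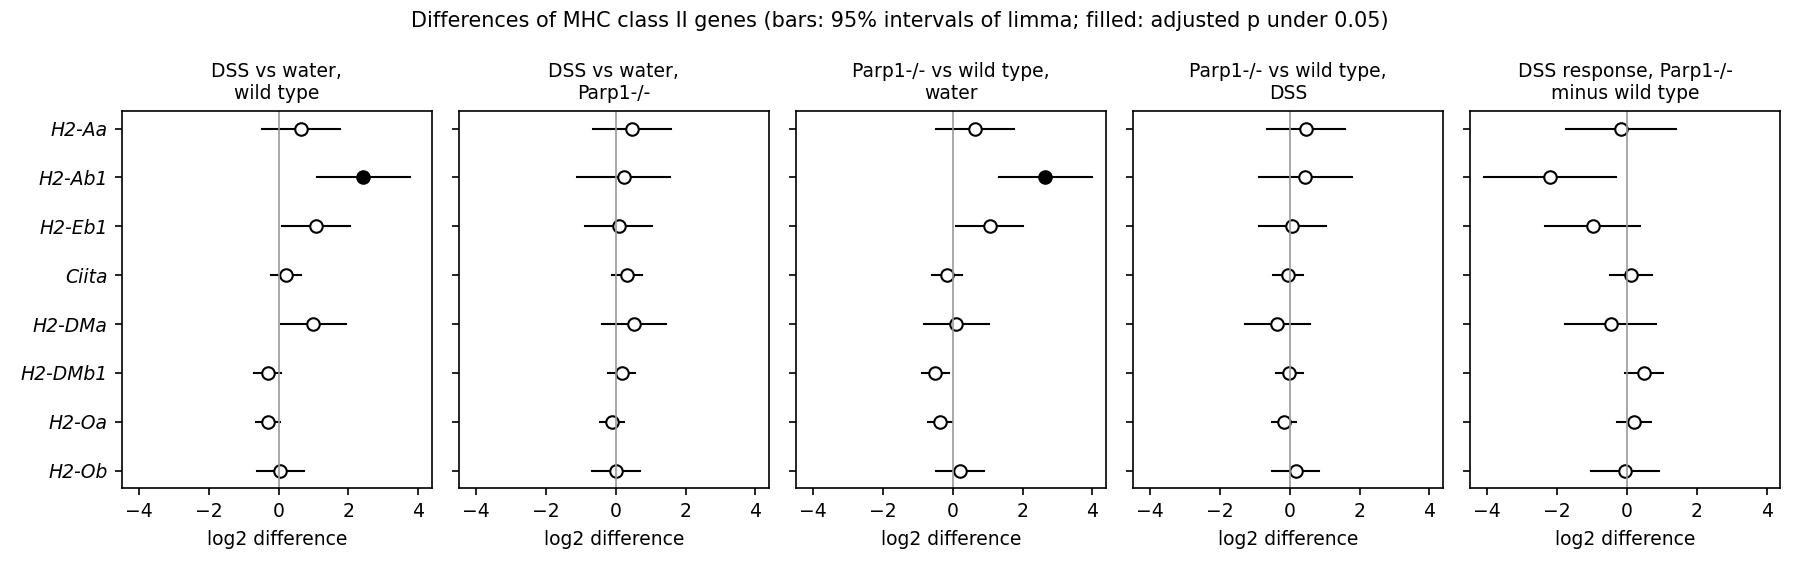
Log2 difference of each measured class II gene (horizontal axis) in the 5 comparisons, with 95% intervals of limma; filled points have an adjusted p under 0.05. H2-Ab1 is the filled point in DSS against water in the wild type (2.42) and in Parp1-/- against wild type on water (2.64); no point is filled in the other 3.

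Further genes of the pathway were described from a list of 42, of which 40 were measured. In the wild type 10 of the 40 were called higher under DSS and none lower, against 8.89% and 4.16% of all genes; the median difference was 0.48. Of 7 genes of endosomal processing, 4 were called higher. Sppl2a, which cuts the last invariant chain fragment from the membrane, rose by 3.43. The proteases Lgmn, Ctsb and Ctsl rose by 2.41, 2.39 and 1.69. Ctss, the cathepsin that trims the invariant chain in professional presenting cells, measured -0.23, 0.92 and 0.74 on water and -1.26, -0.46 and 0.43 under DSS, and was not called. Of 6 interferon-gamma signalling genes 2 were called higher, Jak2 by 2.09 and the receptor chain Ifngr1 by 1.96. Of 13 regulators of transcription 2 were called higher, Irf2 by 2.37 and Spi1 by 0.94. Marchf8, a ubiquitin ligase that removes class II from the surface, rose by 1.40, and Cd274, which encodes the inhibitory ligand PD-L1, by 1.14. The 3 other class II genes, H2-Ea, H2-Eb2 and H2-DMb2, and the RFX and NF-Y subunits were not called in this comparison.

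Single arrays ended some of these calls. Spi1 was not called without any 1 of the wild-type water arrays or without wild-type DSS 2 (limma's adjusted p = 0.0705 to 0.169), Cd274 not without wild-type water 1 or 2 or wild-type DSS 2 (0.0529 to 0.0827), and Lgmn not without wild-type DSS 2 (0.0501). The number of pathway genes called higher went from 7 without wild-type DSS 2 to 18 without wild-type DSS 1, and was 4 with quantile normalization. The share of all genes called higher moved with it, to 4.61%, 19.7% and 1.02% in these 3 fits. Quantile normalization ended the calls of Spi1, Cd274, Lgmn, Ctsl, Ifngr1 and Marchf8 (limma's adjusted p = 0.0771 to 0.328).

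In Parp1-/- mice under DSS none of the 40 was called by limma, and 2 had an unadjusted p under 0.05 (median difference 0.12). The 3 with the smallest p were Cd274, with a difference of 1.31 ± 0.27 (limma's adjusted p = 0.350), Sppl2a, with 0.64, and Irf1, with 0.58. Cd274 measured -0.25, -0.55 and -1.04 on water and 0.67, 0.90 and 0.53 under DSS. Its groups did not overlap, and with quantile normalization it was called (adjusted p = 0.0139).

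On water, 14 of the 40 genes were called higher in Parp1-/- than in wild-type mice and 1 lower, against 17.9% and 13.7% of all genes, with a median difference of 0.25. 6 of the 7 genes of endosomal processing were higher: Ctsd by 3.02, Sppl2a by 2.67, Ctsl by 2.18, Ctsb by 2.12, Lgmn by 1.82 and Ifi30, the thiol reductase of the endosome, by 1.60. The interferon-gamma signalling genes Ifngr1 (1.91), Jak2 (1.85), Ifngr2 (1.81) and Jak1 (1.22) were called higher, 4 of 6. So were the regulators Irf2 (2.29), Creb1 (1.33) and Nfyc (1.06), 3 of 13, and Marchf8 (1.67). Cd86, a ligand that co-stimulates T cells, was lower by 0.69 (difference -0.69, limma's adjusted p = 0.0357). The housekeeping and epithelial genes moved in the same direction in the same arrays, as given above, and their part was not tested. Leaving out wild-type water 1 or Parp1-/- water 2 took the number called higher to 9, and leaving out the 3 arrays high in smooth muscle genes took it to 4; the genes called higher over all went from 3813 to 2666, 2172 and 146 in these fits. With quantile normalization it was also 9, of 1773 over all genes. Lgmn at 0.60, Ifi30 at 0.70, Creb1 at 0.68, Nfyc at 0.74 and Jak1 at 0.51 were no longer called there. Nor was Cd86, at -0.80 (limma's adjusted p = 0.0628), and it was not called with array medians set equal either (-0.58, 0.0661). Single arrays ended the calls of 7 of the 15: those of Jak1, Lgmn, Creb1, Nfyc and Ifngr2 were lost without wild-type water 1 (limma's adjusted p from 0.0555 to 0.109), that of Ifi30 without Parp1-/- water 1 or 2 (0.0527 to 0.0606), and that of Cd86 without any 1 of 5 arrays, wild-type water 1 or 2 or Parp1-/- water 1, 2 or 3 (0.0790 to 0.107). Jak1 and Lgmn were also lost without wild-type water 3 or Parp1-/- water 2 or 3, Nfyc without Parp1-/- water 2 or 3, and Creb1 without Parp1-/- water 1, 2 or 3 (0.0515 to 0.0911 over these).

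**Figure D4:**
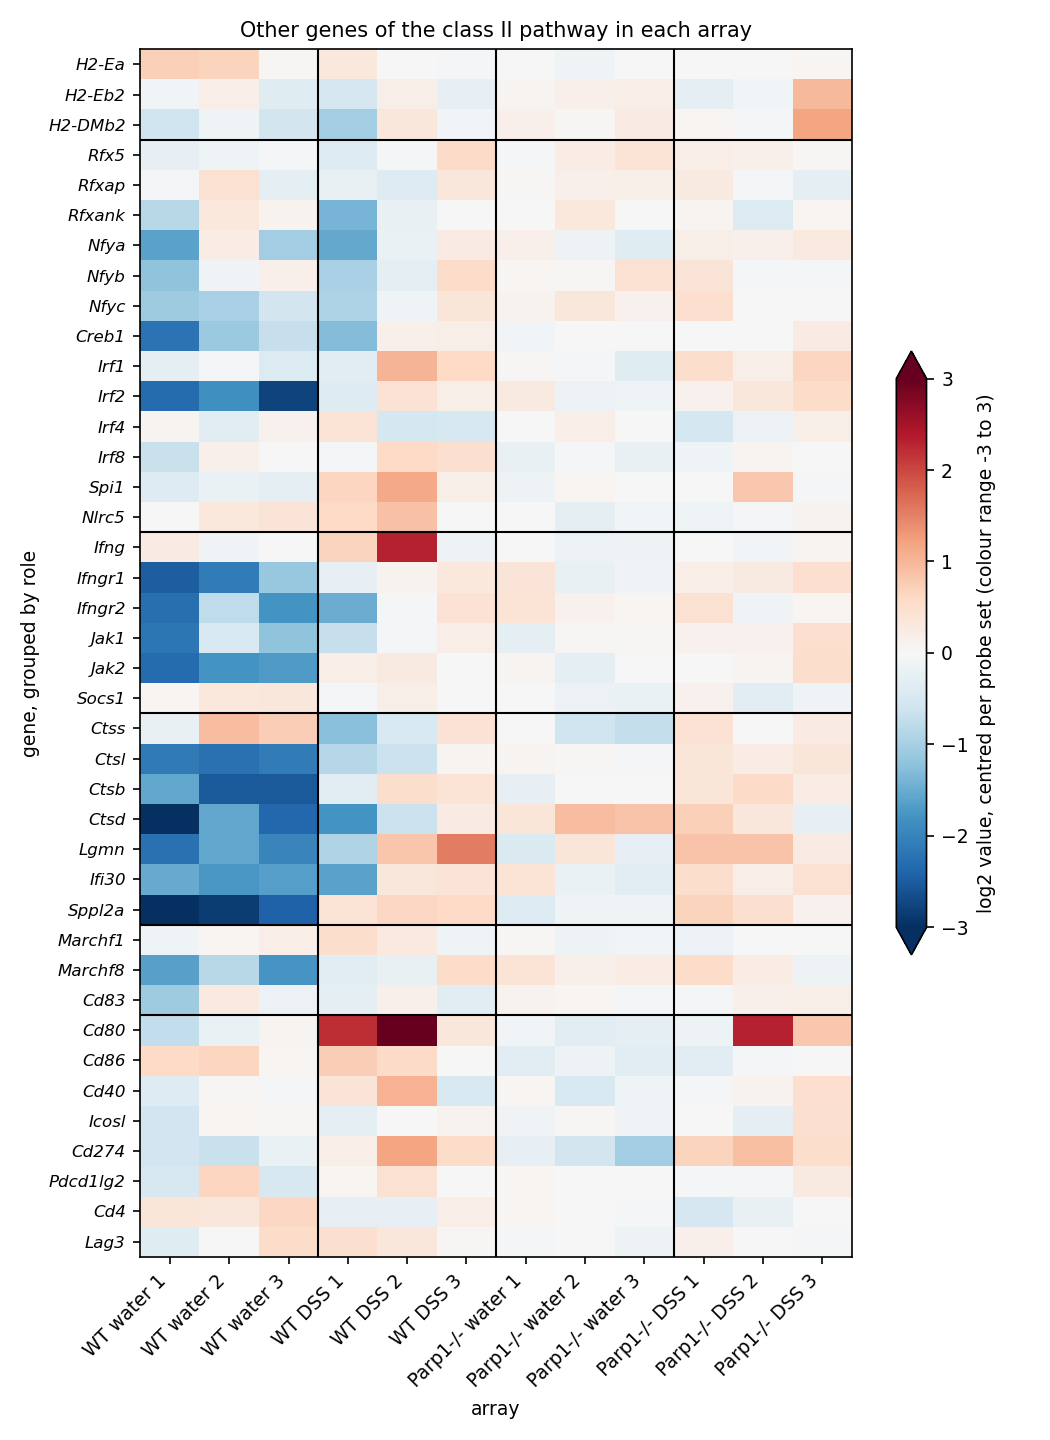
Level (log2, centred per probe set, colour, range limited to -3 to 3) of 40 further genes of the class II pathway, grouped by role (rows), in each array (columns). Sppl2a is low on wild-type water, at -3.39, -2.84 and -2.42, whereas Ctss stands at -0.23, 0.92 and 0.74 there, and Ifng stands at 2.31 in wild-type DSS 2.

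Between genotypes under DSS none of the 40 was called by limma and 3 had an unadjusted p under 0.05: Ctsl, with a difference of 0.79, Cd86, with -0.56, and Nlrc5, the activator of MHC class I genes, with -0.51 (limma's adjusted p = 0.872 for each). For the difference of the DSS responses, 5 of 40 had a response called lower in Parp1-/- mice and none a higher one. Over all genes these shares were 2.33% and 0.216%. The 5 genes were Sppl2a, Irf2, Ctsb, Jak2 and Ctsl. The median over the 40 was -0.23. Of the housekeeping genes 1 of 13 was called lower in that comparison, with a median of -1.37, and of the epithelial markers 5 of 10. The count of 5 pathway genes went to 12 without wild-type DSS 1 and to 2 without wild-type DSS 2, Parp1-/- water 3, Parp1-/- DSS 1 or Parp1-/- DSS 2. It was 0 with quantile normalization and 1 (Sppl2a) with trend and robust options. Without wild-type DSS 1 the share of all genes called lower was 11.8%. In the fits with a count of 2 that share was 0.816% to 1.2%, and with trend and robust options it was 0.601%. With quantile normalization no gene at all was called.

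The genes most like the chains were sought by the mean absolute log2 difference from the mean of H2-Aa, H2-Ab1 and H2-Eb1 over the 12 arrays. The 8 nearest, predicted gene models, clones and small RNA genes aside, were Pkp2 (0.18), Mbtps2 (0.19), Polr3c (0.19), Skap2 (0.20), Taok3 (0.20), Ift22 (0.20), Tbca (0.20) and Ncoa1 (0.21), against a median of 0.76 over all genes. Each was low in the 3 wild-type water arrays and wild-type DSS 1. Among the members the distance was 0.25 for H2-Aa, 0.27 for H2-Eb1 and 0.38 for H2-Ab1, which form the mean, and 0.63 for Ciita, 0.70 for H2-DMa, 0.74 for H2-DMb1, 0.82 for H2-Ob and 0.83 for H2-Oa. The 8 genes were picked for their nearness out of all genes, so their lying nearer than the other members is set by that choice.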

How the data were processed

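RNA of whole colon from 12 mice (3 in each of 4 groups of genotype and treatment) was measured on Affymetrix arrays. The deposited values are log2 values of 31693 probe sets, each centred by the authors on its median over the 12 arrays, as the values themselves show; the base of the logarithm and the direction are taken as usual and were not stated. Array medians ran from -0.044 to 0.10. The labels name no software, background correction, normalization, genome build, scan date or batch. Without scanner files the signal over background is unknown, and precision is limited by the number of arrays. No pair of arrays held identical values.

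Gene names came from the platform's annotation: 22586 probe sets carry 1 gene symbol, 1756 several and 7351 none, and none of the latter were used. Probe sets of a gene were averaged, giving 21314 genes. Cd74 shares its probe set with a microRNA symbol, and a second H2-Oa probe set carries another symbol, so neither was used.

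Group means were fitted to all 12 arrays in 1 model with limma 3.58.1 (R 4.3.3), with eBayes and Benjamini-Hochberg adjustment over all 21314 genes; the threshold for a call was an adjusted p of 0.05. The 5 comparisons share groups. The fit was tested on simulated data. Tables used Python 3.11.15 and pandas 2.3.3. The labels give separate mice but no litters or batches, so p-values cover the spread between these mice only. Named genes were the members, the pathway genes called in any comparison or otherwise the 3 of smallest p, and the 8 genes nearest the chains. The members, the gene lists and the choice of the 4 arrays set apart were made with earlier results of these data known, and promoter motifs with the sequences in view. Alternatives tried were quantile normalization, equal array medians, probe sets on their own, trend and robust options, only the groups compared, the stricter threshold of 0.01, each array left out, and the 4 arrays that stood apart left out. Leaving out the 3 arrays high in smooth muscle genes was chosen after seeing the data.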

Additional observations from a re-analysis of the deposited data

Results flagged for a closer look

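The DSS responses of 5 pathway genes differed between genotypes by limma's test of the difference itself, with a smaller response in Parp1-/- mice. The levels of all 5 on water were called higher in Parp1-/- than in wild-type mice. The Parp1-/- response minus the wild-type response was -2.80 for Sppl2a, -2.02 for Irf2, -1.92 for Ctsb, -1.81 for Jak2 and -1.39 for Ctsl. All 5 rose under DSS in the wild type and none was called in Parp1-/- mice, and all 5 were low in the 3 wild-type water arrays, in which housekeeping genes were also low. Sppl2a measured -3.39, -2.84 and -2.42 there and 0.42, 0.62 and 0.60 with DSS, against -0.39, -0.14 and -0.12 on water and 0.66, 0.47 and 0.12 with DSS in Parp1-/- mice. In wild-type DSS 1, where housekeeping genes were low as well, Sppl2a stood at 0.42 and Jak2 at 0.19, within the range of the other DSS arrays, while Irf2 at -0.38, Ctsb at -0.34 and Ctsl at -0.86 lay below all of them. Leaving out the 3 arrays high in smooth muscle genes leaves 1 Parp1-/- water array. The differences were then -2.74 for Sppl2a, -2.20 for Irf2, -1.75 for Ctsb, -1.87 for Jak2 and -1.47 for Ctsl. With quantile normalization none of the 5 differences was called, nor was that of any gene at all. It gave -1.29 for Sppl2a, -0.92 for Irf2, -0.78 for Ctsb, -0.69 for Jak2 and -0.32 for Ctsl. With trend and robust options Sppl2a alone was called. With 1 array left out, the calls of Sppl2a and Jak2 held in all 12 fits and that of Irf2 in 8. Those of Ctsb and Ctsl held in 2 each, with limma's adjusted p up to 0.0961 and 0.103.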

How the results depend on the processing

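No paired analysis was possible because the replicate numbers are animal numbers that no group shares. Under DSS in the wild type 1 member was called. The count became 0 with quantile normalization, only the groups compared or an adjusted p under 0.01. It ranged from 0 to 4 with 1 array left out. Of all genes 8.89% were called higher, but 1.02% with quantile normalization, 2.91% with only the groups compared and 4.61% to 19.7% with 1 array left out. The count between genotypes on water, 1, became 0 with quantile normalization and stayed at 1 with any 1 array left out. It was 2 with trend and robust options or only the groups compared (H2-DMb1 joining). The shares of all genes called higher and lower there were 17.9% and 13.7%. They were 8.32% and 2.09% with quantile normalization, 17.9% and 16.3% with trend and robust options and 21.2% and 12% with only the groups compared. Without the 3 arrays high in smooth muscle genes the H2-Ab1 difference was 2.42 in the first comparison and 2.40 in the second. The count for the difference of responses ranged from 0 to 1 with 1 array left out; the counts in the other 2 comparisons were 0 throughout. With quantile normalization the mean over the 8 members moved to -0.25, -0.30 and -0.30 in wild-type water 1, 2 and 3 and -0.34 in Parp1-/- water 1. Signs turned for small differences. Quantile normalization gave -0.057 (wild type under DSS) and -0.18 (Parp1-/- under DSS) for H2-Ob, -0.0057 for H2-Eb1 between genotypes under DSS, and 0.13 for H2-Aa and -0.22 for H2-Oa in the difference of responses. Equal array medians gave -0.012 for H2-Ob in Parp1-/- mice and 0.019 for H2-DMb1 between genotypes under DSS. Without the muscle-rich arrays H2-Ob in Parp1-/- mice was -0.068 and the difference of responses of H2-Aa 0.21. Without the 4 arrays that stood apart, differences between genotypes under DSS were -0.29 (H2-Aa), -0.50 (H2-Ab1) and -0.31 (H2-Eb1). With 1 array left out, H2-Ob ranged from -0.14 to 0.16 in the wild type and from -0.36 to 0.31 in Parp1-/- mice, and H2-Eb1 there from -0.062 to 0.28. Between genotypes under DSS the ranges were -0.29 to 1.01 (H2-Aa), -0.50 to 1.01 (H2-Ab1), -0.31 to 0.47 (H2-Eb1), -0.24 to 0.089 (Ciita), -0.16 to 0.14 (H2-DMb1) and -0.20 to 0.48 (H2-Ob). For the difference of responses they were -0.92 to 0.39 (H2-Aa), -0.069 to 0.26 (Ciita) and -0.41 to 0.26 (H2-Ob). The cause of these turns was not tested. Of 288 values of members under alternatives other than leaving out 1 array, 268 kept direction and side of the threshold. Some of these settings could hardly change a value. Each member has 1 probe set, so fitting probe sets on their own alters little. A value that was not called cannot change its side at the stricter threshold of 0.01.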

Other observations

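Interferon-gamma is the main known inducer of CIITA outside professional presenting cells. Its gene, Ifng, measured 0.66, 2.31 and -0.15 in wild-type DSS 1, 2 and 3. In the other 9 arrays Ifng lay between -0.18 and 0.25. In wild-type DSS 1, 2 and 3 the mean of the 3 chains was -1.45, 0.32 and 0.94, and Ciita measured 0.01, 0.22 and 0.26. Housekeeping genes were also low in wild-type DSS 1, at a mean of -1.07. How Ifng relates to these levels was not tested. Cd80, a co-stimulatory ligand, measured 2.20, 3.93 and 0.33 in wild-type DSS and -0.14, 2.32 and 0.81 in Parp1-/- DSS, against -0.73 to 0.09 on water. Irf1, an interferon-induced regulator, measured -0.31, 1.02 and 0.60 in wild-type DSS and 0.53, 0.19 and 0.64 in Parp1-/- DSS. On water it lay between -0.40 and 0.03.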
